A study of Mus musculus with 2 samples.

Results

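The Igfbp5 cells of the mouse tail are the most numerous class among the cells sorted from postnatal tail for a green fluorescent reporter knocked in at Sox1, a transcription factor gene of the neuroepithelium. They were chosen by their own transcripts. A member had molecules of at least 2 of the 5 genes Igfbp5, 1500015O10Rik, Ntn1, Oxtr and Cybrd1, fewer than 10 molecules of 3 fibrillar collagen genes together, fewer than 2 of Krt5 and Krt14, fewer than 2 of 5 cell cycle genes, fewer than 3 of 8 motile cilia genes and no molecule of Stmn2. This rule took 936 of 1964 kept tail cells (47.7%, exact Clopper-Pearson 95% interval 45.4 to 49.9), out of 9952 kept cells in the series. All values of those genes in the members follow from the choice and are given as a description.

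The series held 1 library of Sox1-GFP+ cells from tail and 1 of Sox1-GFP+ cells from brain, both untreated beyond trypsin dissociation and sorting of GFP+ cells, and both captured on the BD Rhapsody system. The tail was postnatal and the brain adult, as given in the study's methods. The reporter genotype was shared by both groups, and no reporter-negative cells were part of these libraries, so no group stands for cells outside the Sox1 sort. By the ages the methods give for such tissues, the tails came from pups in the first days after birth and the brains from mice some weeks old. The number and sex of the animals were not given in the sources used here. Tissue, age, sex mix and library differed together between the groups and cannot be told apart. With 1 library a group no test was possible. Ratios and shares carry 95% intervals that cover counting error only, and cells of a library are not replicates.

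Ependymal cells line the brain ventricles and the central canal of the spinal cord. They descend from radial glia, the dividing cells of the embryonic neuroepithelium, and many carry motile cilia built under the control of Foxj1. Radial glia and ependymal cells share Vim, Sox2 and Sox9, while mature astrocytes carry glutamate transporters, Aqp4 and Apoe. Along the ventral midline of the cord the floor plate secretes netrin and Shh, and the Hox genes of group 13 are known for their expression at the caudal end of the body axis. Igfbp5 encodes a secreted binding protein of insulin-like growth factors, 1500015O10Rik (Ecrg4 in RefSeq) a secreted neuropeptide precursor, Ntn1 the guidance cue netrin, Oxtr the oxytocin receptor and Cybrd1 a ferric reductase of iron uptake.

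The starts of the pair of marker genes that most members carried are shown because they define the class. Both lie on chromosome 1 of GRCm38, Igfbp5 at 72857932 to 72874884 on the minus strand and 1500015O10Rik at 43730602 to 43742578 on the plus strand. RefSeq sequence (GRCm38.p6) of the 100 bases before each RefSeq start reads 5′ to 3′ as follows, from chr1:72874866-72874965 and chr1:43730502-43730601.
Igfbp5: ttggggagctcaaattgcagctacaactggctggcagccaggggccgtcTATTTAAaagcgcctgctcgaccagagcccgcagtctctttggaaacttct
1500015O10Rik: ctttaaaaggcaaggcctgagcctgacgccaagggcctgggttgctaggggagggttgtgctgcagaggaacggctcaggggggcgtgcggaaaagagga
Capitals mark matches on either strand to 4 short promoter motifs. The Igfbp5 window held TATTTAA, present in 1.504% of 32851 such windows, and the other window held no match. The other motifs searched were TATAAA, found in 5.56% of windows, then CCAAT with a share of 18.9%, and GGGCGG with a share of 24.7%. The last 19 bases of the Igfbp5 window fall inside the gene as GENCODE draws it. The promoters of Oxtr, Cybrd1 and Ntn1 are not shown.

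Barcodes with over 200 and under 4000 genes and under 40% mitochondrial molecules were kept. These were 1964 of 2469 tail barcodes and 7988 of 12111 brain barcodes, with 2817103 and 6424466 molecules. The members held 1107718 molecules, with a median of 1141 a cell (352 to 3207), 742 genes and 13.7% mitochondrial molecules. The libraries shared 29 cell index numbers, 18 of them among kept cells and 14 of them members. Scrublet called 5 of 1964 tail cells doublets (0.255%), 3 of them members, a share so low that the caller cannot be taken to have worked. A level is given as molecules per 1000000 of the summed molecules of a class (CPM). Molecules were captured by their poly(A) tails and levels were not divided by gene length, so an order of genes by level is an order of molecule counts.

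Igfbp5 and H19 were the most abundant transcripts of the members outside mitochondrial and ribosomal protein genes. Igfbp5 stood at 22868 CPM, and a cell held from 0 to 118 molecules with a median of 25, or 2.17% of its molecules. Only 5 members had none, although the rule asked for any 2 of the 5 markers and not for Igfbp5 itself. H19, an imprinted non-coding RNA of growth control at chromosome 7, 142575529 to 142578143, stood at 22280 CPM and was not part of the rule. It was spread unevenly. A member held a median of 16 and at most 163 H19 molecules, 212 members (22.6%) had none, and the 10% of cells with the most H19 held 34.7% of it, against 23.2% for Igfbp5. In 1 cell H19 made up 12.1% of all molecules.

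**Figure D1:**
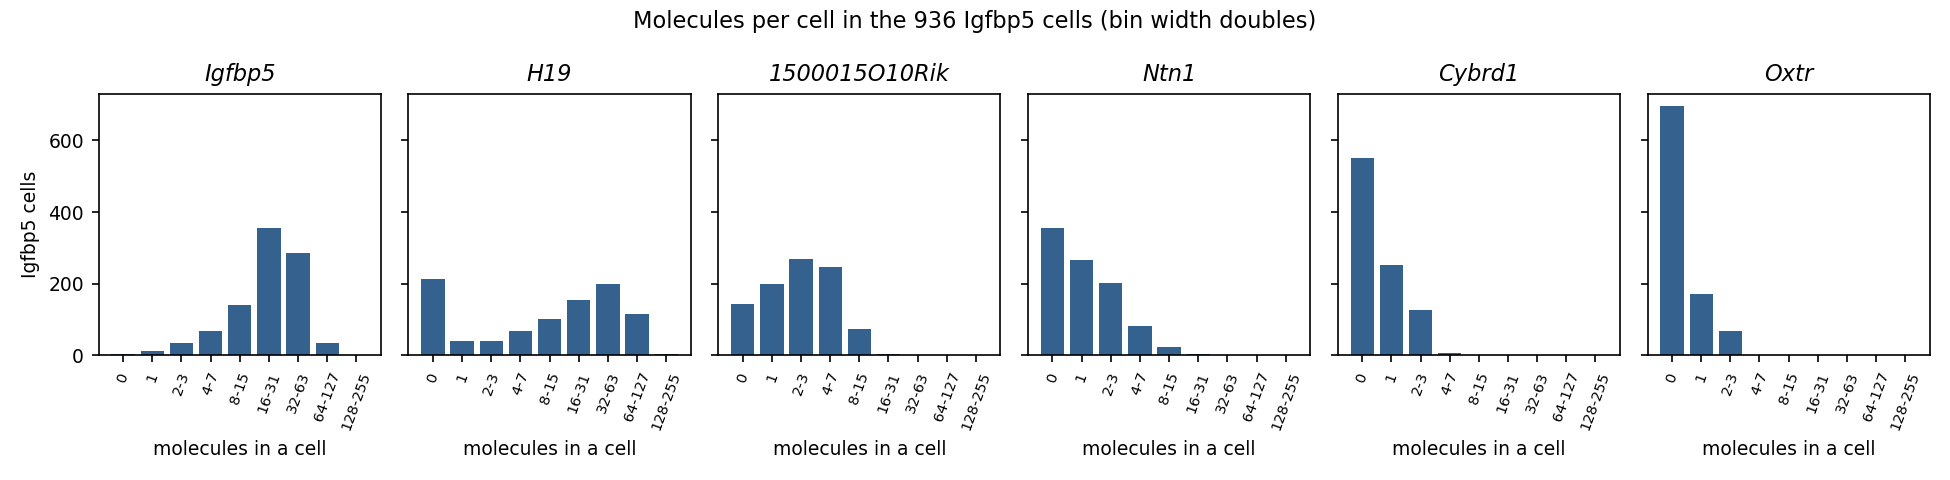
Bars give the number of the 936 Igfbp5 cells (y axis) with a given number of molecules (x axis, bins that double in width) of Igfbp5, H19, 1500015O10Rik, Ntn1, Cybrd1 and Oxtr. Igfbp5 peaks at 16 to 31 molecules, with 355 cells, while H19 has 212 cells at 0 and its next peak, of 200 cells, at 32 to 63 molecules. Oxtr and Cybrd1 are at 0 in most cells.

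Beyond Igfbp5 the markers were found in fewer cells, and Cybrd1 and Oxtr in a minority. 1500015O10Rik was found in 84.7% of members at 2632 CPM, Ntn1 in 62.1% at 1366 CPM, Cybrd1 in 41.2% at 510 CPM and Oxtr in 25.6% at 297 CPM. The commonest pair was Igfbp5 with 1500015O10Rik, found together in 788 cells, and the least common Oxtr with Cybrd1, in 103. By number of markers, 261 members had 2, 353 had 3, 260 had 4 and 62 had all 5, with median depths of 892, 1133, 1278.5 and 1504 molecules. Detection of more markers thus went with depth.

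At the edge of the rule, the 198 tail cells with 1 marker that met every other condition had a median of 1034 molecules and Igfbp5 at 5652 CPM, against 18657 CPM in the members with 2 markers. H19 was at 2702 CPM in the former and 17676 CPM in the latter, and Dcx, a gene of young neurons, at 430 and 32.2 CPM. Inside the limits, 80 members had 1 cell cycle gene, 199 had 1 and 55 had 2 cilia genes, 40 had 30 to 40% mitochondrial molecules and none had 5 to 9 collagen molecules. In all, 1130 kept tail cells had 2 or more markers. Of them 41 exceeded the collagen limit, 99 the cell cycle limit, 85 the cilia limit, and 5 had Stmn2, some for more than 1 reason.

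After Igfbp5 and H19 came general cellular transcripts and glial ones. Eef1a1 (translation elongation) stood at 5006 CPM, Ptma (prothymosin) at 4306, Gnas (an imprinted G protein gene) at 3913, Tmsb4x (actin binding) at 3889 and Actb at 3680 CPM. Fos, an immediate early gene, followed at 3530 CPM. Nnat, an imprinted gene of the developing nervous system, was at 3484 CPM in 79.2% of cells and Vim, the intermediate filament of radial glia and ependyma, at 3337 CPM in 90.2% of cells. Mt2 (metallothionein), Tpt1, Actg1, 1500015O10Rik and Sparcl1 (a secreted matrix protein) completed the 15 highest, at 3325, 2727, 2654, 2632 and 2537 CPM.

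The label of an ependymal and glial kind was checked against markers outside the rule. Of the ependymal genes outside the cilium, Vim, Cd24a (36.8% of members) and Anxa2 (34.9%) were common. With cells thinned to equal depth, as set out below for Sox1, Vim was in 68.2% of members (65.1 to 71.2). It was in 68.6% of fibroblast-like tail cells (61.1 to 75.5), so Vim did not separate the members from them. Rarres2 had no molecule in any member, Clu 13 and S100a6 8 over all 936 cells. Among cilia genes outside the rule, Foxj1, the master regulator of motile cilia, was in 28.7% of members and Cfap126 in 30.9%, and Fam183b and Enkur, genes of the ciliary axoneme, in 27.0% and 26.8%. Radial glia genes ranged widely, with Slc1a3 (glutamate uptake) in 62.0%, Fabp7 (fatty acid binding) in 52.6%, Sox2 and Pax6 each in 44.8% and Hes1 in 29.9%. Sox9 was in only 15.6% of members, Nes in 8.01% and Hes5 in 0.748%. Thinned in the same way, Sox9 was in 6.36% of members (4.87 to 8.12) and 4.07% of fibroblast-like cells (1.65 to 8.21), with overlapping intervals. Since Rarres2 had no molecule and Clu and S100a6 had few, the class is called here by its leading gene. Of the 8 ependymal genes outside the cilium, only 5 could be judged against multiciliated tail cells. None was called, where 5.12% of all genes were. Whether low Rarres2, Clu and S100a6 set the members apart from those cells was not tested.

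Markers of several other cell types were at or near 0 and those of others were present. Sox10, Foxd3, Erbb3 and Cdh19, genes of neural crest and Schwann cells, had no molecule in the members, and the 10 genes of that list summed to 87.6 CPM, of which Pmp22, which many cell types express, made 73.1. Macrophage and endothelial lists of 8 and 7 genes summed to 5.42 and 4.51 CPM, with Csf1r, C1qa, Pecam1 and Cdh5 at 0. Pkd2l1, a channel of neurons that contact the cerebrospinal fluid, was at 0 as well. The neuron list of 9 genes summed to 299.7 CPM, of which Map2 made 226.6, with Dcx and Tubb3 at 8.12 and 4.51 CPM. The notochord and chondrocyte list summed to 263.6 CPM, of which Col2a1, the collagen of cartilage, made 251 CPM with molecules in 21.2% of members, while T, a gene of the notochord, had 2 molecules. The fibroblast list summed to 212 CPM, led by Fbln1 at 60.5 CPM, and the astrocyte list to 655 CPM, led by Apoe at 242 CPM. Haemoglobin was found in 28 members with 971 molecules, of which 2 cells held 943. Ratios of Hba-a1, Hbb-bs and Hbb-bt below therefore rest on 2 cells.

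Sox1 itself, the gene whose reporter was sorted, was seen in 63 of 936 members (6.73%). To compare shares between classes of unlike depth, each cell was thinned to 400 molecules, which left out 8 members. Sox1 was then present in 22 of 928 members (2.37%, 1.49 to 3.57). In fibroblast-like tail cells, which should lack it, the thinned share was 0 of 172, which allows up to 1.74% by a limit of 3 cells of the total, inside the members' interval. Thinning to 800 molecules left out 186 of 936 members and 8 fibroblast-like cells. The deeper members that remained stood at 4.53% (3.16 to 6.28) and fibroblast-like cells at 0.610% (0.0154 to 3.35), with intervals that overlapped slightly. Without thinning the members' 6.73% (5.21 to 8.53) at a median of 1141 molecules lay above the 0.581% (0.0147 to 3.197) of fibroblast-like cells, whose median of 1991.5 molecules was deeper, with no overlap of the intervals. Brain astroglial-like cells stood at 3.22% when thinned to 400 molecules (2.64 to 3.87), overlapping the members, and Stmn2 neuron-like tail cells at 13.95% (8.48 to 21.2), above both. Tail cells with 0 or 1 marker that met the other limits stood at 5.35% (3.42 to 7.92) at that thinning. Without thinning they stood at 13.2% (10.1 to 16.7) at a median of 1143 molecules, above the members with no overlap of the intervals.

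Sox2, a relative of Sox1 in neural progenitors, was commoner in the members than in fibroblast-like cells beyond counting error. It was present in 182 of 928 thinned members (19.6%, 17.1 to 22.3) and in 0 of 172 fibroblast-like cells, against 13.7% (12.6 to 14.96) of brain astroglial-like cells. Cycling tail cells stood at 16.5% (9.06 to 26.5) and multiciliated tail cells at 11.6% (5.72 to 20.3), and both intervals overlap that of the members. Of the 63 members with Sox1, 32 also had Sox2. Sox2 and Pax6 were found together in 194 members and Pax6 with Nkx6-1 in 193.

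**Figure D2:**
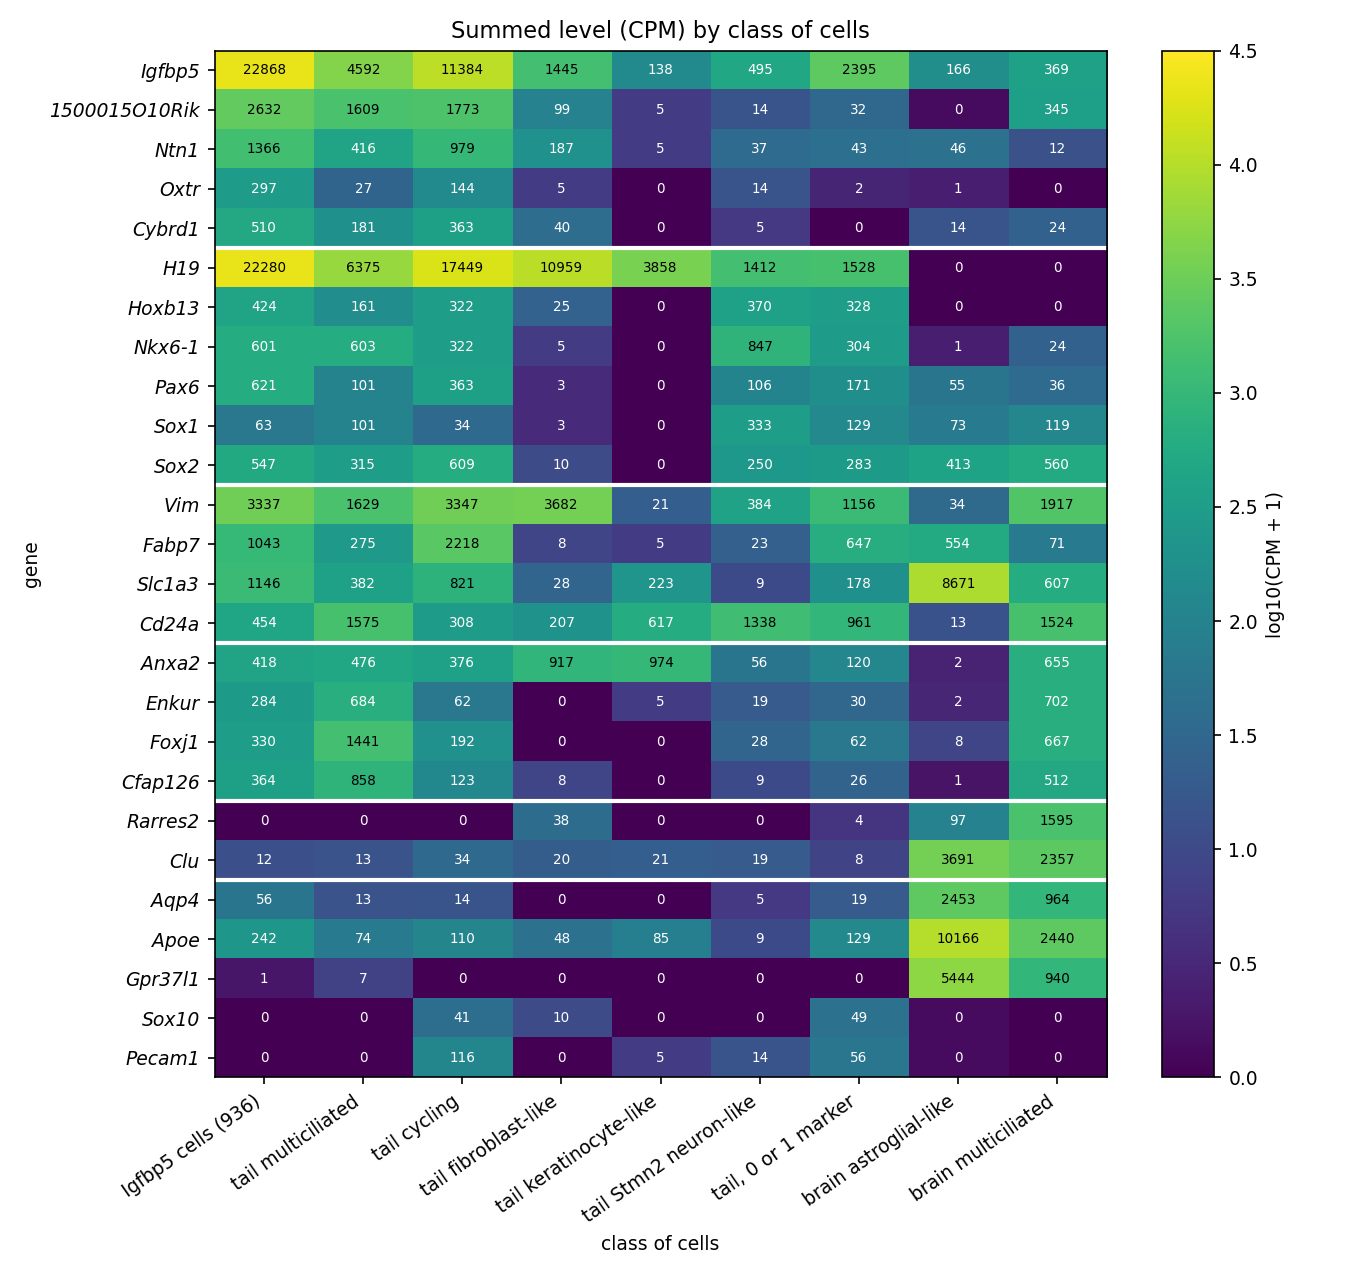
Cells of the grid give the summed level (CPM, printed; colour, log10 of CPM + 1) of 26 genes (rows) in the Igfbp5 cells and 8 other classes of cells (columns). The rule genes at the top are high in the Igfbp5 cells by choice, H19 and Hoxb13 are at 0 in both brain classes, and Gpr37l1 and Apoe are high in the brain classes.

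The first comparison set the members against the 3514 astroglial-like cells of the adult brain, chosen by at least 2 of Agt, Slc6a11, Chst2, Hapln1 and Igsf1 under the same limits on other genes. It addresses how far the tail cells resemble this part of the Sox1-GFP+ glia of the brain. The class made up 44.0% of kept brain cells and left out multiciliated and cycling cells. The Igfbp5 cells had far more of the caudal Hox genes, H19, Vim, Nkx6-1, genes of motile cilia and immediate early genes, and far less of every astrocyte gene with enough molecules to be judged. The low astrocyte genes follow in part from the choice of the brain class. A gene was called when its CPM differed at least 4-fold with at least 50 molecules over both classes. Of 8364 genes, 1774 (21.2%) were called, 952 (11.4%) higher and 822 (9.83%) lower in the members. This split depends on scaling. The median gene was 0.44 higher in the members on the log2 scale, edgeR's TMM factors shifted all log2 ratios by -0.62 and median-ratio factors by -0.57, and the split then became 631 higher and 1149 lower, or 645 and 1124.

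H19 led the genes higher in the members. Its 24680 molecules faced 0 in the 3514 brain cells, so it was at least 21400-fold higher at a floor of 3 molecules over the brain class. Other tail classes held H19 too. Thinned shares were 72.6% of members (69.6 to 75.5), 72.1% of fibroblast-like (64.8 to 78.7) and 75.9% of cycling cells (65.0 to 84.9), whose intervals overlap. Multiciliated tail cells stood at 51.2%, keratinocyte-like at 42.4%, Stmn2 neuron-like at 13.2% and tail cells with 0 or 1 marker at 12.6%. Xist, the RNA of X inactivation in females, was at least 557-fold higher, with 579.6 CPM against 0 molecules. None of the brain astroglial-like cells had Xist and 548 had a Y-linked molecule, so the sex of the animals moved with this comparison. Gpc3 (a growth-restricting glypican) had 1 molecule in the brain class and was 1805-fold higher (323 to 71407). Ctgf and Ifitm1 were at least 219-fold and 199-fold higher, and Ifitm3 and Lsp1 were 325-fold (164 to 755) and 328-fold (150 to 897) higher. The uncharacterised 2410004P03Rik was at least 191-fold higher.

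Caudal Hox genes were present in the tail cells and nearly missing from the brain class. Hoxb13 (chromosome 11, 96194316 to 96197447) was at 424 CPM in 36.4% of members and at 0 in the brain, at least 408-fold higher. Hoxa13 was at least 67.6-fold higher and Hoxc13 48.6-fold (15.8 to 243), with 3 molecules in the brain class, so all 3 group 13 genes with enough molecules were called higher, where the background was 11.4%. Hoxa9, Hoxd10 and Hoxd11, the 3 measured of 12 genes of groups 9 to 12, were at least 78.0, 52.0 and 61.6-fold higher. Within the tail library Hoxb13 was also found in other classes. It was at 370 CPM in Stmn2 neuron-like, 322 in cycling, 161 in multiciliated and 25.3 CPM in fibroblast-like cells, and at 0 in keratinocyte-like cells. Thinned shares were 14.1% of members (11.9 to 16.5), 13.95% of Stmn2 neuron-like (8.48 to 21.2) and 15.2% of cycling cells (8.10 to 25.03), whose intervals overlap.

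Dorsoventral patterning factors went both ways. Nkx6-1, a factor of the ventral cord, was 433-fold higher (168 to 1594) at 601 CPM, and Pax6, of the intermediate cord and of radial glia, 11.3-fold higher (9.46 to 13.5) at 621 CPM. Of the 10 measured of 16 listed genes, 2 were higher and 6 lower, beside 11.4% and 9.83% of all genes. The lower ones were Dbx2, Irx3, Irx5, Nkx6-2, Nkx2-2 and Olig2, all at 6.32 CPM or less in the members. Pax3 and Zic1 were not called.

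Radial glia genes were split, beside a background of 11.4% higher and 9.83% lower over all genes. Of 13 measured, 4 were higher, namely Vim 97.1-fold (79.5 to 120), Nes 52.7-fold (19.8 to 198), Prom1 23.2-fold (13.6 to 42.7) and Pax6, and 3 were lower, namely Slc1a3 7.57-fold (7.15 to 8.01), Ptprz1 11.04-fold (9.76 to 12.5) and Hes5 13.01-fold (7.36 to 25.4). The median log2 ratio of the list, 0.41, lay next to the 0.44 of all genes. Fabp7 (1.88-fold), Hes1 (3.55-fold), Ddah1 and Cdh2 stayed inside the limit, and Sox9 (3.95-fold lower) did so under CPM but was called lower with TMM. Sox2 was 1.32-fold higher (1.20 to 1.46) under CPM and on the lower side under TMM, so no direction is given for it. Sox3 was called higher, 6.69-fold (3.97 to 11.7), and Sox1 was not called (72.5 CPM in the brain class, 63.2 in the members).

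All 6 measured genes of motile cilia outside the rule were called higher, among them Foxj1 43.2-fold (28.1 to 69.7), Cfap126 524-fold (144 to 4343) and Rsph1 48.9-fold (20.2 to 154). The axonemal genes Fam183b and Enkur were 171-fold (72.4 to 529) and 137-fold (62.0 to 375) higher. Over all genes, 11.4% were called higher and 9.83% lower. Of the 8 ependymal genes outside the cilium, 5 were higher, including Anxa2 241-fold (102 to 745), Cd24a 35.4-fold (25.3 to 50.8) and Vim and Prom1 of the radial glia list, while Rarres2 was at least 35.9-fold lower, Clu 314-fold lower (184 to 591) and S100a6 4.18-fold lower (2.03 to 9.99). The lower interval bound of S100a6 lies inside the limit.

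All 10 measured astrocyte genes were called lower, against a background of 9.83%. Since the brain class was chosen by astroglial genes, Agt and Slc6a11 of this list among them, this direction follows in part from the choice. Gpr37l1, a receptor of astrocytes, had 1 molecule in the members and was 6030-fold lower (1082 to 238204), and Ntsr2 was 1464-fold lower (405 to 12095). Slc1a2, the main astrocyte glutamate transporter, was 71.1-fold lower (60.0 to 84.9), Aqp4 43.8-fold (34.1 to 57.2), Apoe 42.0-fold (37.3 to 47.6) and Aldoc 29.3-fold (24.99 to 34.5). Other large differences in that direction were Itih3 (1417-fold, 254 to 55968) and Bcan (brevican, 281-fold, 157 to 563). Omg, Fam107a and Cmtm5 had no molecule in the members and were at least 319, 234 and 224-fold lower.

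Signalling lists were mixed, and their counts stand beside a background of 11.4% higher and 9.83% lower over all genes. In the insulin-like growth factor system 4 of 8 measured genes were higher, namely Igf2 (at least 67.6-fold), Pappa2 (a protease that cleaves binding proteins, at least 59.0-fold), Igfbp3 144-fold (48.4 to 705, 3 molecules in the brain class) and Igfbp4 8.16-fold (6.04 to 11.2), and none were lower. In the netrin and Slit system 5 of 9 were higher, including the ligands Slit2 15.6-fold (9.89 to 25.8) and Slit3 161-fold (27.9 to 6472, 1 molecule in the brain class), the receptors Robo2 20.2-fold (11.9 to 36.4) and Unc5c 10.0-fold (5.50 to 19.6), and Ntn4 5.18-fold, which was not called with TMM. Of imprinted growth genes 5 of 9 were higher, with Cdkn1c, a brake of the cell cycle, 447-fold (79.2 to 17774) and Grb10 282-fold (77.2 to 2345) beside H19, Igf2 and Ndn.

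No measured gene of the Notch pathway was called higher, where 11.4% of all genes were. Of 13 measured, 4 were lower, against 9.83% of all genes, namely Hes5, Heyl 5.55-fold (2.84 to 12.4), Nrarp 51.0-fold (17.3 to 248) and Lfng 6.99-fold (5.64 to 8.75). In the FGF and EGF list 5 of 11 were lower, with Fgfr3 20.8-fold (17.1 to 25.6) and Egfr 7.13-fold (4.55 to 11.8), and Spry1 was higher by 5.51-fold under CPM but not with TMM. The Wnt list had 5 higher and 4 lower of 19, with Wnt4 41.6-fold (19.5 to 106) and Sfrp2 23.0-fold (12.9 to 44.5) higher and Wnt7b (at least 20.8-fold) and Sfrp5 (at least 102-fold) lower. With TMM the Wnt count was 3 higher and 4 lower. The BMP and Id list had 3 higher and 4 lower of 14, and none of the 3 higher (Id1, Smad5, Smad7) was called with TMM. The hedgehog list had 0 higher and 2 lower of 8 (Gli1 and Hhip), and 4 lower with TMM, which also gave 5 lower in the Notch list and 6 lower in the FGF and EGF list.

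Adhesion and iron genes went both ways, beside the same background of 11.4% higher and 9.83% lower. Of 13 measured junction and polarity genes, 3 were higher, namely Ctnnb1 6.18-fold (5.54 to 6.89), Crb2 11.9-fold (7.76 to 18.7) and Prom1, and 3 lower, namely the gap junction genes Gja1 28.7-fold (24.8 to 33.3) and Gjb6 and the claudin gene Cldn10 266-fold (114.1 to 821). With TMM 3 were higher and 5 lower. Of 11 iron genes, Cp (ceruloplasmin) was 319-fold higher (87.3 to 2646, 2 molecules in the brain class) and Ftl1 4.71-fold, the latter not with TMM, while Slc39a14 and Steap3 were lower. Enpp2 (autotaxin), a secreted enzyme known from the choroid plexus, was 27.8-fold higher (21.6 to 36.4) and found in 47.9% of members.

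All 9 measured immediate early genes were higher in the members, Fos 20.2-fold (18.4 to 22.2), Egr1 59.6-fold (48.4 to 74.1) and Ier2 120-fold (62.6 to 264) among them. Over all genes, 11.4% were called higher. Immediate early genes respond within minutes to stress and to tissue dissociation. Fos was found in 45.6% of thinned members, 52.3% of thinned fibroblast-like tail cells and 5.23% of thinned brain astroglial-like cells. Among other classes it was in 24.8% of Stmn2 neuron-like and 31.8% of keratinocyte-like tail cells and in 18.97% of multiciliated brain cells, and over all kept cells in 41.9% of tail and 23.2% of brain cells, so the astroglial-like share was the lowest of those given. The part of dissociation in these values was not tested.

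The second comparison stayed within the tail library and set the members against the 86 multiciliated ependymal-like cells, which carried at least 3 of the 8 cilia genes and, at a median of 1653.5 molecules, were deeper. It addresses what the members share with the ciliated cells of the same sort. They differed less than from the brain class. Of 4613 genes, 236 (5.12%) were called, 146 (3.16%) higher and 90 (1.95%) lower, and the median log2 ratio was 0.04. With TMM, which shifted the log2 ratios by 0.20, the split became 208 higher and 71 lower. It turned round when the whole interval had to lie beyond 4-fold, to 5 higher and 34 lower.

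Several of the leading genes lower in the members have ties to cilia, which follows in part from the choice of the classes. Ckap2l, a spindle protein, was 24.5-fold lower (14.7 to 42.7), Odf3b 9.44-fold (6.62 to 13.5), Zmynd10, a dynein assembly factor, 8.79-fold (5.91 to 13.1) and Tubb4b, the tubulin of axonemes, 6.99-fold (5.99 to 8.16). 1700012B09Rik, 1700001C02Rik, 1700016K19Rik, 4833427G06Rik and Spint2 were lower by 9.01-fold to 17.5-fold, and the chaperone Hsp90aa1 by 6.503-fold (5.93 to 7.13). Foxj1 was lower by 4.37-fold (3.68 to 5.19), not called with TMM, and Rsph1 by 6.40-fold (4.69 to 8.71). The other 4 measured cilia genes were 2.14-fold to 3.00-fold lower and were not called. Cdkn1a, a cell cycle inhibitor, was 5.79-fold lower (3.71 to 8.98).

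Among higher genes Pax6 was 6.18-fold higher in the members (3.72 to 11.1), Lsp1 25.5-fold (9.91 to 93.8), and Efnb3, an ephrin ligand of the midline, 8.89-fold (4.05 to 24.4). Bcl2, Ctgf and Met had 1 to 3 molecules in the multiciliated class, with ratios of 16.3 (4.46 to 135), 11.3 (3.83 to 55.2) and 21.4 (3.79 to 851), and Ago1, with 0, was at least 4.04-fold higher. Hba-a1, Hbb-bs and Hbb-bt also stood among the 10 leading higher genes, from 2 cells. Pax6 was the only gene of 12 measured in the radial glia list that was called, where 5.12% of all genes were. The others ranged up to 3.79-fold for Fabp7, which was called higher with TMM, 11 of the 12 stood above 1 and their median log2 ratio was 1.20 against 0.04 for all genes. H19 was at 6375 CPM in the multiciliated class and 22280 in the members, which was called with TMM but not under CPM. Nkx6-1 was at 603 and 601 CPM.

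The third comparison set the members against 79 cycling tail cells with at least 2 of the 5 cell cycle genes (median 1736 molecules). Of 4524 genes, 165 (3.65%) were called, 107 (2.37%) higher and 58 (1.28%) lower, with a median log2 ratio of 0.14. The split turned round with the whole interval beyond 4-fold, to 2 higher and 39 lower, and with at least 200 molecules, to 5 higher and 9 lower. The leading lower genes, Fabp4 apart, were genes of the cell cycle, as the choice of the classes implies. Nusap1 (spindle) was 197-fold lower (65.0 to 977, 3 molecules in the members), Ccnb1 69.2-fold (33.3 to 166), Pclaf 44.2-fold (26.7 to 77.5) and Ccna2 39.7-fold (24.7 to 66.7), and Pbk, Spc25, Hmmr, Tpx2 and Prc1 35.1-fold to 54.2-fold. The fatty acid binding gene Fabp4, 500-fold lower (86.8 to 20063), had 1 molecule in the members. Fabp4 is known from endothelium, and the cycling class also held endothelial genes, 342 CPM over the list of 7 with Pecam1 at 116 CPM, and Sox10 at 41.1 CPM. The part of such cells in the comparison was not tested.

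None of the 12 measured radial glia genes was called against the cycling class, a count close to the 3.65% of all genes. Vim stood at 3337 CPM in the members and 3347 CPM in cycling cells, and Sox2 at 547 and 609 CPM, with intervals of the ratio that include 1. Fabp7 was 2.13-fold lower in the members (1.88 to 2.41), inside the limit. Higher genes included Enkur 4.62-fold (2.40 to 10.2), Nap1l5 6.30-fold (2.42 to 23.3) and Col27a1 7.36-fold (3.12 to 22.8). Cfap43, Aldoc and Ivd had 1 or 2 molecules in the cycling class, with ratios of 11.6 (3.17 to 96.6), 10.3 (2.80 to 85.7) and 16.2 (2.86 to 646). Daw1, a gene of ciliary dynein transport, and Ccdc191 had none there and were at least 4.48 and 3.82-fold higher, the latter a bound below the limit. Mest, an imprinted growth gene, was 6.10-fold lower in the members (3.74 to 9.89).

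The members varied among themselves. Clustering on 1000 variable genes, without the rule genes, mitochondrial or ribosomal protein genes, gave 4 groups of 453, 283, 114 and 86 cells. Their defining genes describe the groups and are no test of them. The first principal component behind the groups held 1.03% of the variance. Its correlation with log depth was 0.035, and those of components 2 and 3 were 0.512 and 0.345. The part of depth in the groups was not tested. Group 1 (48.4% of members) had few genes of its own, with Itga4, Ankrd26, Lsp1, Odf3b and Arsi about 2-fold higher than in the other members. It was the shallowest group, with a median of 998 molecules against 1307, 1169.5 and 1237, and had 15.99% mitochondrial molecules against 11.9 to 13.9%.

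Group 2 (283 cells) was led by haemoglobin from 2 cells and by immediate early genes. The 10 immediate early genes summed to 22416 CPM there against 2960, 7558 and 6251 CPM in groups 1, 3 and 4, and all 10 were highest there. Fos stood at 7571 CPM and was at 890 CPM in group 1. Zfp36, which destabilises mRNA, was in 59.7% of group 2 and 8.42% of the other members, and Nr4a1, an orphan nuclear receptor, in 44.5% and 3.37%.

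Group 3 (114 cells) was led by Gm3764, Ptn, Tnc, Miat and Fgfbp3. Ptn (pleiotrophin) was at 555 CPM against 18.6 in the other members, Tnc (tenascin) at 406 against 20.7, and the non-coding RNAs Gm3764 and Miat at 342 against 3.10 and 235 against 23.8 CPM. The transcription factor gene Sox11, which also stood among its 10 leading genes, was at 498 CPM against 112. Genes of the dorsal cord and roof plate were highest there too, and so were lists of other cell types. Zic1 had all its 22 molecules in this group, Pax3 17 of its 20 and Gdf10 18 of its 23, and the roof plate list summed to 413 CPM against 8.79 to 34.3 in the others. The neuron list summed to 648 CPM against 227 to 299, with its 3 genes of at least 10 molecules highest there and all 9 molecules of Dcx in this group. The astrocyte list summed to 1153 CPM against 308 to 698, with 4 of 7 such genes highest there, and the tanycyte list to 299 CPM against 105 to 137, mainly from Col23a1. The part of such cells in the group was not tested.

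Group 4 (86 cells) was led by Sulf1, an editor of heparan sulfate, Pdyn (prodynorphin), Alcam, Cbln1 and Prelp. Sulf1 was in 54.7% of these cells and in 0.353% of the other members, and Pdyn in 54.7% and 0.235%. The floor plate list without the rule gene Ntn1, 10 genes, summed to 3148 CPM there against 316 to 605 CPM elsewhere, and all 8 of them with at least 10 molecules were highest there. Foxa2 was at 281 CPM (10.5 to 18.99 in the other groups), Foxa1 at 246 (2.64 to 21.3) and Spon1 at 897 (208 to 327). Pax6 stood at 106 CPM against 548 to 800.

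**Figure D3:**
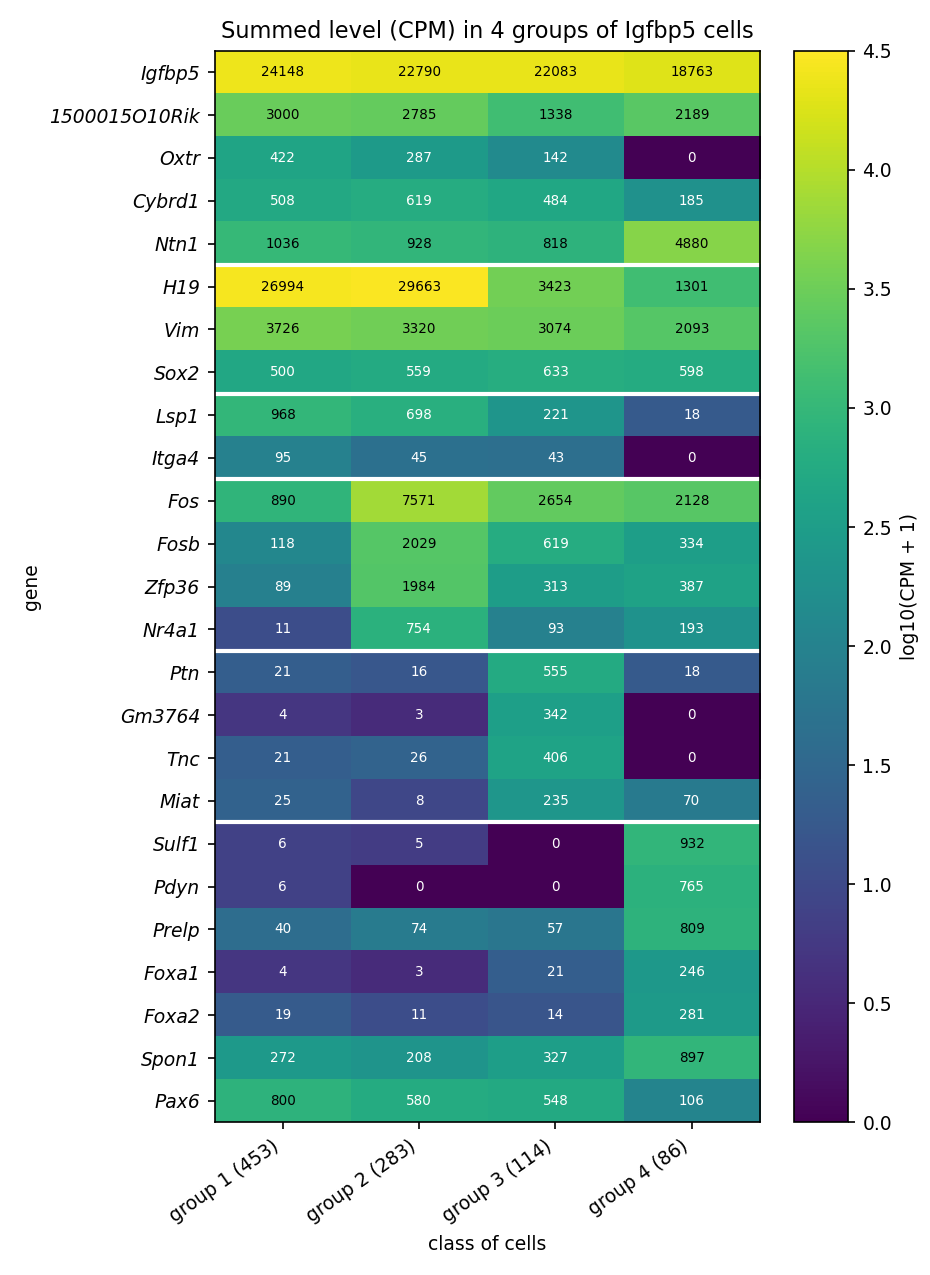
Cells of the grid give the summed level (CPM, printed; colour, log10 of CPM + 1) of 25 genes (rows) in the 4 groups of Igfbp5 cells (columns, with cell numbers). Igfbp5 lies between 18763 and 24148 CPM in every group, H19 falls from 26994 and 29663 CPM in groups 1 and 2 to 3423 and 1301 CPM in groups 3 and 4, and Ntn1, Sulf1, Pdyn and Foxa2 are highest in group 4.

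The 5 rule markers were not used in the clustering, but cells entered the class by having 2 of them, so their balance between groups follows in part from the choice and is given as a description. Igfbp5 was even, at 24148, 22790, 22083 and 18763 CPM in groups 1 to 4. Ntn1 stood at 4880 CPM in group 4 and at 964 CPM in the other members. Oxtr had none of its 329 molecules in group 4, and Cybrd1 was at 185 CPM there against 484 to 619 CPM in the other groups. 1500015O10Rik was lowest in group 3, at 1338 CPM. H19, which did enter the clustering, was at 26994, 29663, 3423 and 1301 CPM, and had no molecule in 12.8%, 4.59%, 61.4% and 82.6% of the cells of groups 1 to 4. Vim and Sox2 varied less, from 2093 to 3726 CPM and from 500.0 to 633 CPM. Sox1 was highest in group 3, at 149 CPM, against 71.7, 29.0 and 35.2 CPM in groups 1, 2 and 4. Hoxb13 was at 441, 469, 470 and 149 CPM, and Nkx6-1 at 669, 643, 306 and 545 CPM. Fabp7 was at 1786 CPM in group 3 and 1372 CPM in group 4, against 949 and 785 CPM in groups 1 and 2.

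The groups were compared with other settings of the clustering. With another random seed 93.9% to 99.6% of each group stayed together. With 3 groups, groups 1, 2 and 4 stayed together at 98.01 to 98.9%, and 84.2% of group 3 joined the group that held group 1. With 5 groups, 63.6% of group 1 stayed together and 81.6 to 94.2% of the others.

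Cells of both sexes were among the members. Xist without a Y-linked molecule was seen in 267, a Y-linked molecule without Xist in 119, both in 1 and neither in 549. Of 1790 genes with at least 50 molecules over both kinds of cells, Xist and the Y-linked genes left out, 3 (0.168%) were 4-fold apart, all haemoglobin genes. H19 was 1.46-fold higher in cells with Xist (1.39 to 1.52), Nkx6-1 1.61-fold higher (1.23 to 2.13) and Ntn1 lower, at 0.717 of the level (0.619 to 0.832), and Igfbp5 was at 22328 and 23807 CPM. The animals behind these cells cannot be told apart here. The 2 kinds of cells were also spread unevenly over the groups of members. Of the 267 cells with Xist only, 36 were in group 3 and 26 in group 4. Of the 119 with a Y-linked molecule only, 23 were in group 3 and 23 in group 4, a larger share. H19 was low in both of these groups, and Ntn1 was high in group 4. The part of the groups in the ratios between the sexes was not tested.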

How the data were processed

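Sox1-GFP+ cells were sorted from postnatal tail and adult brain of mice, with 1 library each, and captured on the BD Rhapsody system. The authors deposited counts, as molecules per cell and gene after the pipeline's correction of identifier errors, beside uncorrected molecules and reads. Per the file headers they came from the BD Rhapsody WTA Analysis Pipeline 1.10.1, and the submitters' processing notes also name STAR 2.7.1a, UMI-tools 1.0.1, Subread featureCounts 1.6.4 and the mouse build mm10. The methods give another pipeline version, so the headers were followed.

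From these counts, barcodes with over 200 and under 4000 genes and under 40% mitochondrial molecules were kept, as in the study's methods. Kept cells held 2817103 molecules in tail and 6424466 in brain, and the depth of the smaller classes sets which genes could be judged. Classes were set by the rules given with the results. The members and the gene lists (412 symbols, 399 of them listed in the files) were chosen with earlier results of these data known.

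Molecules were summed per class and given as CPM (per 1000000). Ratios carry conditional exact binomial intervals, shares exact Clopper-Pearson intervals (95%), and a class at 0 was set to a floor of 3 molecules over the class. The floor did not enter the calls, so a gene with 0 molecules in 1 class was called whatever its bound. Ccdc191 was called in this way at a bound of 3.82-fold. Genes were called at 4-fold with at least 50 molecules, mitochondrial and rule genes left out, in the brain comparison also the 5 genes that chose the astroglial-like class. Named genes were those of the lists, the 10 called genes in each direction of each comparison ranked by the interval bound nearer to 1, the 15 highest in the members, and the 5 leading genes of each group of members. Some of these genes are not reported here. Groups came from k-means on 20 principal components of log-normalised molecules. Their leading genes were ranked by the fold of CPM + 20.

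Alternatives were the mitochondrial limit, molecules before error correction, the number of markers, thinning, doublet calls by Scrublet, cells by sex-linked transcripts, scaling factors, molecule minimum, fold and interval. They ran in Python 3.11.15 (numpy 2.4.6, scipy 1.17.1, pandas 2.3.3, scikit-learn 1.9.0, scanpy 1.11.5) and R 4.3.3 (edgeR 4.0.16 and DESeq2 1.42.0, for scaling factors only, with no test). The calling step was tested on simulated data. Gene positions are those of GENCODE vM21 on GRCm38.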

Additional observations from a re-analysis of the deposited data

Results flagged for a closer look

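Cells that met the members' rule were also found outside the class. In the brain library 39 of 7988 kept cells met it (0.488%, 0.347 to 0.667), 27 of them also astroglial-like and 0 with 3 markers. They had Igfbp5 at 1430 CPM and no molecule of H19 or Hoxb13. Among the 505 tail barcodes left out by the filters, 22 met the gene part of the rule, 20 of them with 40% or more mitochondrial molecules. They had a median of 320.5 molecules, 59.4% of them mitochondrial, with Igfbp5 at 10947 CPM and H19 at 10578 CPM. No comparison above used either set.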

How the results depend on the processing

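Of 66 alternatives over 5 results, 45 left the value close to the one reported and 21 moved it. A share was close inside the main interval, and a count within a set fold of the main count, whatever its split. The 1780 genes with TMM and the 1214 with the whole interval beyond 4-fold thus counted as close to the 1774 against the brain class. Leaving out doublet calls removed 3 members, and leaving out cells with both Xist and a Y-linked molecule removed 1. Those settings could barely move a value. The share of members was 34.4% with 3 or more markers, 57.7% with 1 or more and 41.9% with every cell thinned to 400 molecules. The share of members with Sox1 was 1.48% with 3 or more markers, 6.73% without thinning and 4.53% at 800 molecules. The count of genes apart from the brain class was 865 with at least 200 molecules, 3090 with at least 10 and 4023 at a fold of 2. For the multiciliated class it was 88 with Xist cells only, 60 with Y-linked cells only, 32 and 1309 with those minimums, 39 with the whole interval beyond 4-fold and 1115 at a fold of 2. For the cycling class the same 6 values were 48, 43, 14, 1264, 41 and 837. In the sex-limited fits only the members were limited, so fewer molecules entered and fewer genes could pass. Leaving out members with haemoglobin, chosen after seeing the data, gave 1767, 228 and 157 genes. No paired analysis was possible because each group had 1 library. The 86 and 79 cells of the tail comparisons limit which genes could be judged at this depth.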
